A study of Mus musculus with 10 samples.

Results

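Alpha cells of the embryonic mouse pancreas were followed from embryonic day E12.5 to E17.5. A cell was counted as an alpha cell when it had at least 200 detected genes, at least 1% of its unique molecular identifiers (UMIs, each standing for 1 captured mRNA molecule) from *Gcg*, less than 1% from *Ins1* and *Ins2* together, less than 0.5% from *Sst*, less than 0.3% from *Ghrl*, at least 1 UMI of *Chga* and at most 1 UMI of *Col3a1*. This gate kept 685 of 50085 cells of the Swiss Webster libraries. With the 547 alpha cells of a *Fev-Cre; ROSA26mTmG* library it kept 1232 of 57982 cells. Members were thus chosen by the measured UMI shares of the 7 gate genes, and the values of those genes below are descriptions and carry no test.

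Single-cell RNA-seq was performed with 10x Chromium 3' kits on pools of whole pancreata, and every library was a pool of embryos, from 1 litter each except for E12.5 v1. The first kit version (v1) was used on all live cells of Swiss Webster pancreata, with 18 pancreata of 2 litters at E12.5, 14 (batch 1) and 11 (batch 2) at E14.5 and 8 at E17.5. The E12.5 and E17.5 v1 libraries were collected with E14.5 batch 2, on another day than batch 1. The second version (v2) was used on live cells negative for CD140a, a surface protein of mesenchymal cells also called *Pdgfra*, from 14 (E12.5), 13 (E14.5) and 13 (E17.5) Swiss Webster pancreata, with each stage processed on its own day. The E17.5 v2 suspension was run in 2 wells (123 and 129 alpha cells), which are technical replicates and were summed. The *Fev-Cre; ROSA26mTmG* library came from 3 E14.5 pancreata of mice kept on a C57BL/6J background. In these embryos Cre driven by *Fev* regulatory sequence switches a ubiquitous membrane tdTomato to membrane GFP in Fev-expressing cells and their descendants, and the library joined sorted GFP+ cells with GFP-/tdTomato+ cells. Dissociation took 10 min at E12.5, 15 min at E14.5 and 30 min at E17.5, so stage and dissociation time cannot be told apart. Kit version likewise cannot be told apart from CD140a depletion and sequencer.

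Alpha cells are among the earliest endocrine cells of the pancreas. They cut proglucagon with the convertase *Pcsk2* into glucagon, store it in dense-core granules and release it when glucose falls, and the transcription factors *Irx1*, *Irx2* and *Pou3f4* mark them among islet cells. The first wave of *Gcg*+ cells arises before the main expansion of the branched epithelium, and it is followed by the wave that yields most beta cells.

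The libraries held 43 (E12.5 v1), 225 (E12.5 v2), 29 (E14.5 v1 batch 1), 30 (E14.5 v1 batch 2), 100 (E14.5 v2), 6 (E17.5 v1) and 252 (E17.5 v2) alpha cells. Their UMI sums ranged from 24129 in the 6 cells of E17.5 v1 to 3038286 in E17.5 v2. A minimum of 10 cells per library left E17.5 v1 out of the main test, so E17.5 stands there as 1 library. The only replicate pools behind the p-values were therefore those of E12.5 and E14.5, or of E14.5 alone in the comparison with beta cells. No spread was measured between E17.5 pools. In the main test each gene's spread also leaned mostly on a trend shared by all genes, with 19.1 prior against 2 residual degrees of freedom. Levels are given as CPM, UMI counts scaled to a library total of 1e6. Unless said otherwise, they are listed as E12.5 v1 and v2, then E14.5 v1 batch 1, v1 batch 2 and v2, then E17.5 v1 and v2. In E17.5 v1 a count of 0 allows up to 124 CPM (3 counts, a one-sided limit on counting error only; the exact Poisson 95% interval runs to 153 CPM), so zeros there carry little weight. No cell barcode was shared between v1 and v2 libraries, while pairs of v1 libraries shared 10 to 24 and pairs of v2 libraries 67 to 155 barcodes.

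*Gcg* took a median of 10.6 and 4.60% of an alpha cell's UMIs at E12.5, then 7.83, 8.41 and 5.57% at E14.5, then 8.81 and 9.90% at E17.5. Near the 1% limit, 43 of the 225 E12.5 v2 cells and 13 of the 252 E17.5 v2 cells held 1 to 2% *Gcg*, while 16 and 14 further cells failed only by having 0.5 to 1%. The *Ghrl* limit alone removed 44 otherwise accepted cells at E12.5 v2 and 84 at E17.5 v2.

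**Figure D1:**
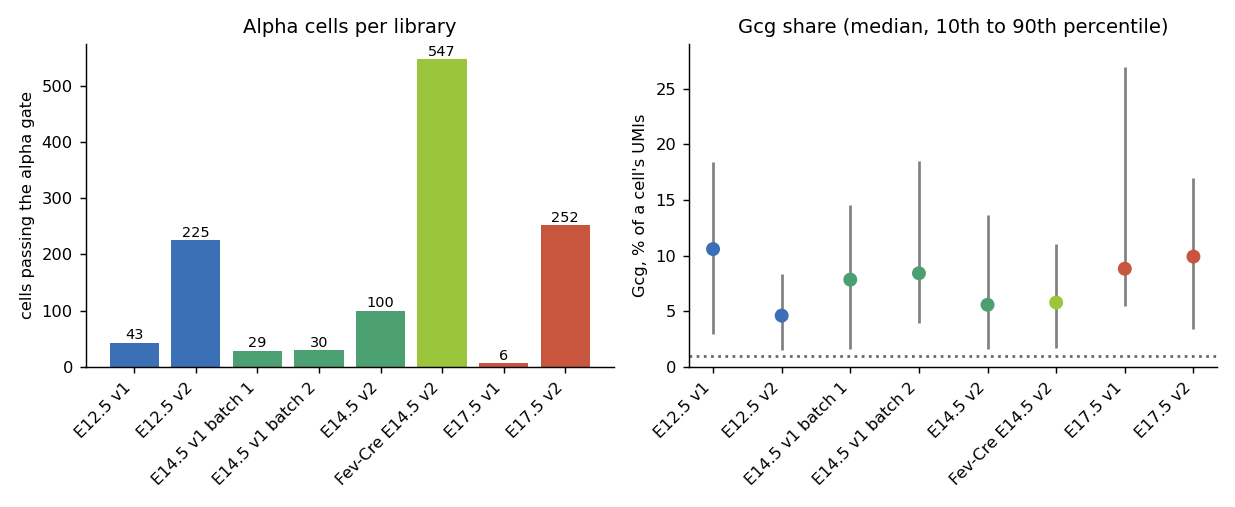
Alpha cells per library (left, bars count cells that passed the gate) and the share of each cell's UMIs that came from *Gcg* (right, points are medians and lines run from the 10th to the 90th percentile; the dotted line is the 1% limit). E17.5 v1 holds 6 cells, and the median *Gcg* share lies between 4.60 and 10.6% in every library.

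Markers of the alpha lineage were high in these cells. *Irx1*, a homeobox gene of the alpha lineage, stood at 172 and 171 CPM at E12.5, 347, 297 and 114 CPM at E14.5 and 207 and 111 CPM at E17.5, against 2.79 CPM in all other cells of E12.5 v2 and 1.48 CPM in those of E17.5 v2. Its neighbour *Irx2* stood at 177 CPM in E12.5 v2 alpha cells and at 2.85 CPM in the other cells of that library. *Pou3f4* and *Peg10* behaved in the same way, with 124 and 727 CPM in E17.5 v2 alpha cells against 6.02 and 11.1 CPM outside them. RNA of markers of other cells was present too. The 10 duct genes made up 0.0710 to 0.208% of alpha UMIs and 0.0971 to 0.518% of the UMIs of all other cells of the Swiss Webster libraries. Their member *Spp1* stood at 166 and 122 CPM at E12.5, 686, 12.1 and 1083 CPM at E14.5 and 82.9 and 410.3 CPM at E17.5, whereas *Cftr* had no UMI in any alpha sum. The 16 mesenchymal genes made up 0.0456 to 0.153% of alpha UMIs, against 0.252 to 1.78% in the other cells, with *Col1a2* at 15.3 to 58.4 CPM. *Pdgfra*, by which the v2 suspensions were depleted, reached at most 0.835 CPM in the Swiss Webster sums. Erythroid and acinar RNA were present as well. The summed haemoglobin genes made up 0.0415 and 0.667% of alpha UMIs at E12.5, then 0.0547, 0.136 and 2.23% at E14.5, then 0.195 and 3.61% at E17.5. The 33 acinar genes made up 0.0115 to 1.21%, with no order by stage or kit.

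The main question was how alpha cells differed between E12.5 and E17.5. Alpha cells of E17.5 held more mRNA of a group of secretory granule genes (*Slc30a8*, *Scg2*, *Scgn* and *Pcsk2*), of the peptide genes *Ppy* and *Iapp* and of the homeobox gene *Meis2*. They held less of the gut and neural peptide genes *Gip*, *Sct*, *Cck*, *Gal* and *Cartpt*, of the growth factor gene *Mdk* and of the early regulators *Cited1*, *Sox11* and *Cdkn1a*. Of these genes, *Scg2*, *Scgn*, *Pcsk2*, *Gal* and *Sox11* no longer passed without E12.5 v2, and DESeq2 did not call *Sox11*. *Ppy* and *Iapp* are also markers of pancreatic polypeptide (PP) cells and beta cells, and the gate limited neither. *Irx1*, *Irx2* and *Pou3f4*, which mark the lineage, and the abundant *Ttr* and *Pyy* passed no test of change. In edgeR's quasi-likelihood test with the kit as a block, 100 of 8082 genes (1.24%) were higher at E17.5 and 87 (1.08%) lower. A gene was called when it differed 2-fold or more with a Benjamini-Hochberg adjusted p under 0.05. The median log2 fold change over all genes was 0.0085, and 880 of the 8082 genes had an unadjusted p below 0.05 in edgeR's test.

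The calls rested on some libraries more than on others. Without E12.5 v2 the counts were 33 higher and 30 lower, and without E14.5 v1 batch 1, which leaves the v1 libraries collected together, they were 217 and 204. Without E14.5 v1 batch 2 they were 148 and 117, and without the kit term 8 genes were higher and 8 lower. DESeq2 called 28 in each direction. Of the 100 higher genes, 72 were also higher in alpha cells than in the remaining cells of E17.5 v2, 58 of them at least 2-fold, and 28 were not. Of the 87 lower genes, 47 were higher in alpha cells than in the remaining cells of E12.5 v2. Both counts reuse the alpha sums behind the calls, and the share over all tested genes was not counted, so they are descriptions only. Within v1 the levels of E17.5, from 6 cells, and E12.5 differed in the direction of the call for 70 of the 100 higher genes and 74 of the 87 lower ones. In all, 26 of the 100 and 50 of the 87 had no UMI in E17.5 v1. A gene with no UMI there cannot count as higher, so the depth of that library sets part of these counts. With E17.5 v1 in place of E17.5 v2 the median log2 fold change over all genes was -0.48. The share of all tested genes with the same direction in v1 was not counted. In 4 genes of each direction more than 50% of the UMIs came from 1 cell.

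**Figure D2:**
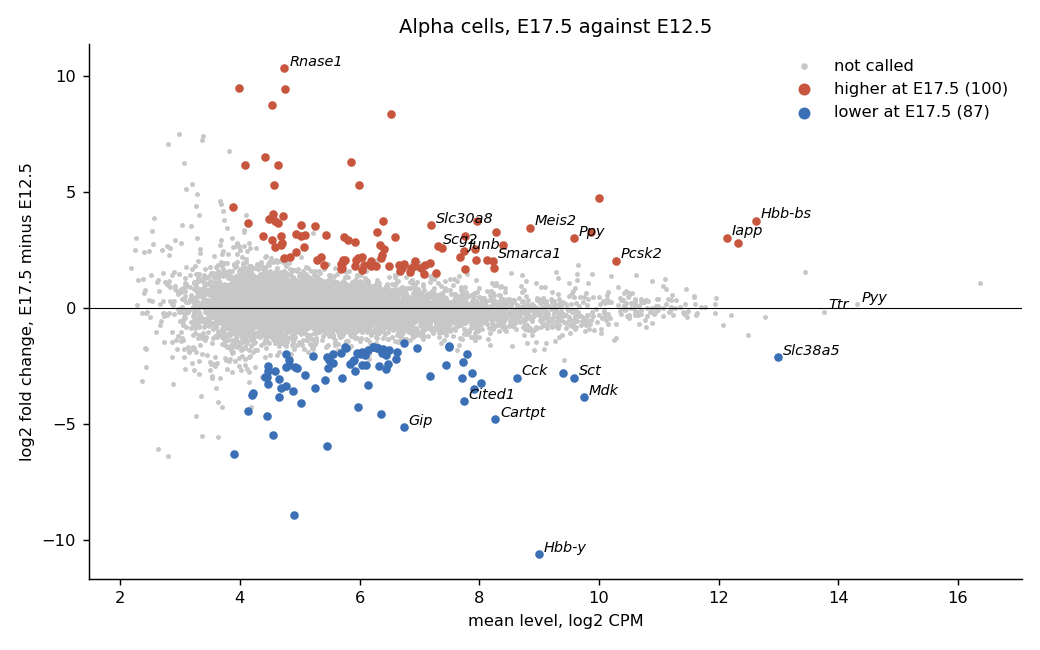
Log2 fold change of E17.5 against E12.5 alpha cells (vertical axis) by mean level (horizontal axis, log2 CPM) for the 8082 tested genes. The 100 genes higher at E17.5 are red, the 87 lower ones blue and all others grey, and *Ttr* and *Pyy* lie near 0 while *Slc30a8* and *Gip* lie at 3.58 and -5.15.

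Some genes of the dense-core granule rose. Of 17 tested genes for granule content and prohormone processing, 4 were called higher and none lower, with a median log2 fold change of 0.86. At an unadjusted p below 0.05 the list had 7 genes, and DESeq2 called 4. *Slc30a8* encodes the zinc transporter ZnT8 that loads zinc into insulin and glucagon granules (ENSMUSG00000022315, GRCm38, chromosome 15, 52295553 to 52335798, plus strand, protein-coding). It was measured at 45.4 and 30.0 CPM at E12.5, 78.1, 200.2 and 86.9 CPM at E14.5 and 373 and 324 CPM at E17.5. Each E17.5 library lay above every earlier library, and the v2 libraries rose at both steps. The log2 fold change was 3.58 (SE 0.43, adjusted p = 3.57e-05), 11.9-fold. After each cell was thinned to 2000 UMIs, 9.78% of E12.5 v2 alpha cells (22 of 225) and 40.1% of E17.5 v2 alpha cells (101 of 252) had a UMI of *Slc30a8*. In the other epithelial cells of E17.5 v2 thinned to the same depth, 0.201% had one (8 of 3991).

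*Scg2*, a granin that helps granules to form, was measured at 42.2 and 56.8 CPM at E12.5, 95.5, 91.0 and 161 CPM at E14.5 and 166 and 343 CPM at E17.5. Its levels at E12.5 lay below those of all later libraries, and the log2 fold change was 2.65 (SE 0.38, adjusted p = 2.63e-04). *Scgn*, a calcium sensor of endocrine cells that acts in granule release, stood at 110.3 and 75.9 CPM at E12.5, 313, 431 and 249 CPM at E14.5 and 456 and 289 CPM at E17.5. It was already higher at E14.5, with 1.71 on the log2 scale from E12.5 to E14.5 (adjusted p = 0.00503) and 2.06 from E12.5 to E17.5 (adjusted p = 0.00432). *Pcsk2*, the convertase that yields glucagon, stood at 678 and 699 CPM at E12.5, 1077, 1298 and 852 CPM at E14.5 and 1741 and 2419 CPM at E17.5. Both E17.5 libraries were above all others, at a log2 fold change of 2.04 (SE 0.45, adjusted p = 0.0136), and 74.7% of thinned E12.5 v2 cells already had a *Pcsk2* UMI against 97.2% at E17.5 v2. Without the E12.5 v2 library these 3 genes no longer passed, with log2 fold changes of 2.31 for *Scg2* (adjusted p = 0.115), 2.06 for *Scgn* (0.135) and 2.40 for *Pcsk2* (0.13). *Pcsk1*, the convertase that makes GLP-1 in gut cells and cuts proinsulin, did not pass (27.5 CPM in E12.5 v2 and 22.1 in E17.5 v2, log2 fold change -0.29, adjusted p = 0.935). The granin gene *Chgb* stood at 763 and 931 CPM at E12.5, 3178, 1286 and 1633 CPM at E14.5 and 497.5 and 721 CPM at E17.5. Every E14.5 library lay above all others, while the log2 fold change from E12.5 to E17.5 was -0.07 (adjusted p = 0.987).

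No gene of the release machinery passed the test. None of 19 tested exocytosis genes was called by edgeR or by DESeq2, and the median was 0.72 on the log2 scale with 14 above zero. In edgeR's test 7 of the 19 had an unadjusted p below 0.05, against 880 of all 8082 genes. With few of all genes called, a count of 0 among 19 says little about the list. *Snap25*, a SNARE protein of granule fusion, had 1.42 (adjusted p = 0.0786), and the synaptotagmin gene *Syt13* had 1.37 (adjusted p = 0.068). The 14 tested ion channel genes gave the same count of 0 in both tools, with 1 gene at an unadjusted p below 0.05 and a median of 0.64. *Abcc8*, the regulatory subunit of the ATP-sensitive potassium channel, had a log2 fold change of 0.57 (adjusted p = 0.713).

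Peptide genes moved in both directions. Of 12 tested hormone, peptide and carrier genes, 2 were called higher and 5 lower, with a median log2 fold change of -0.78; 6 of the 12 were called by DESeq2. *Gip*, which encodes the gut incretin GIP (ENSMUSG00000014351, GRCm38, chromosome 11, 96024545 to 96030831, plus strand, protein-coding), was measured at 114 and 298 CPM at E12.5, 34.7, 60.7 and 30.7 CPM at E14.5 and 0 and 6.26 CPM at E17.5. The E12.5 libraries lay above all others and E17.5 v2 lay lowest among libraries with a UMI. The log2 fold change was -5.15 (SE 0.57, adjusted p = 1.81e-05), 35.5-fold lower. The thinned shares of *Gip*+ alpha cells were 18.7% at E12.5 v2 and 0.794% at E17.5 v2, and 21.1% of the E17.5 v2 UMIs came from 1 cell.

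*Sct*, the gene of the gut hormone secretin (chromosome 7, 141278330 to 141279133), was measured at 1688 and 1368 CPM at E12.5, 391, 437 and 417 CPM at E14.5 and 249 and 168 CPM at E17.5. Levels were lower at each step of the v2 series, at a log2 fold change of -3.00 (SE 0.52, adjusted p = 0.00136). *Cck*, the gene of cholecystokinin and in the pancreas also a gene of endocrine progenitors, stood at 737 and 495 CPM at E12.5, 434, 461 and 240.2 CPM at E14.5 and 207 and 53.7 CPM at E17.5. The v2 libraries again were lower at each step (-3.01, SE 0.47, adjusted p = 6.44e-04), and thinned shares went from 51.1 to 7.14%, with 25.2% of the E17.5 v2 UMIs from 1 cell. *Gal*, the gene of the neuropeptide galanin, stood at 71.4 and 107 CPM at E12.5, 26.0, 6.07 and 29.4 CPM at E14.5 and 0 and 12.2 CPM at E17.5 and fell by 3.04 on the log2 scale (adjusted p = 8.47e-04). Without E12.5 v2 it no longer passed (-3.47, adjusted p = 0.233). *Npy*, the gene of neuropeptide Y, was called lower (-3.37, adjusted p = 8.57e-04), but it stood at 68.0 CPM in E12.5 v2 and at 10.2 CPM or less in every other Swiss Webster library, E12.5 v1 included. *Cartpt*, an appetite peptide gene outside that list (chromosome 13, 99898489 to 99901091), was measured at 928 and 608 CPM at E12.5, 26.0, 72.8 and 79.2 CPM at E14.5 and 0 and 24.4 CPM at E17.5. The E12.5 libraries lay far above every later one with a UMI, and the log2 fold change was -3.53 by E14.5 (adjusted p = 4.76e-06) and -4.79 by E17.5 (SE 0.58, adjusted p = 3.57e-05).

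*Ppy*, the gene of pancreatic polypeptide (chromosome 11, 102099930 to 102101319), rose. It was measured at 389 and 257 CPM at E12.5, 1146, 558 and 321 CPM at E14.5 and 1907 and 1673 CPM at E17.5, so that both E17.5 libraries lay above all others. The log2 fold change was 3.01 (SE 0.48, adjusted p = 7.33e-04). The other cells of E17.5 v2 had 92.9 CPM. Because the gate set no limit on *Ppy*, cells with mRNA of both *Gcg* and *Ppy* could count as alpha cells. *Iapp*, the gene of islet amyloid polypeptide, which beta cells co-secrete with insulin (chromosome 6, 142298423 to 142303961), stood at 970.4 and 1457 CPM at E12.5, 4758, 7837 and 2832 CPM at E14.5 and 7089 and 8277 CPM at E17.5. Levels at E12.5 were below every later library (3.03, SE 0.53, adjusted p = 0.00157). Beta cells of E17.5 v2 held 30954 CPM of *Iapp* and the remaining non-alpha cells together 3773 CPM, and the part of RNA from other cells in the alpha value was not tested.

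Other hormone genes passed no test between E12.5 and E17.5. *Pyy*, the gene of peptide YY, stood at 21332 and 15155 CPM at E12.5, 25412, 24202 and 18390.0 CPM at E14.5 and 30760.3 and 15839.7 CPM at E17.5 and overlapped across stages (0.15, adjusted p = 0.963). *Ttr*, the gene of transthyretin, a carrier protein abundant in islet cells, stood at 13456 and 13065 CPM at E12.5, 11798, 12628 and 17034 CPM at E14.5 and 15960.5 and 12172 CPM at E17.5 (-0.16, adjusted p = 0.963). *Gast*, the gene of gastrin, was highest in the middle. It was measured at 656 and 387 CPM at E12.5, 1988, 995 and 2053 CPM at E14.5 and 746 and 359 CPM at E17.5, and was called higher at E14.5 than at E12.5 (1.64, adjusted p = 0.0399) but not between E12.5 and E17.5 (-0.42, adjusted p = 0.922).

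**Figure D3:**
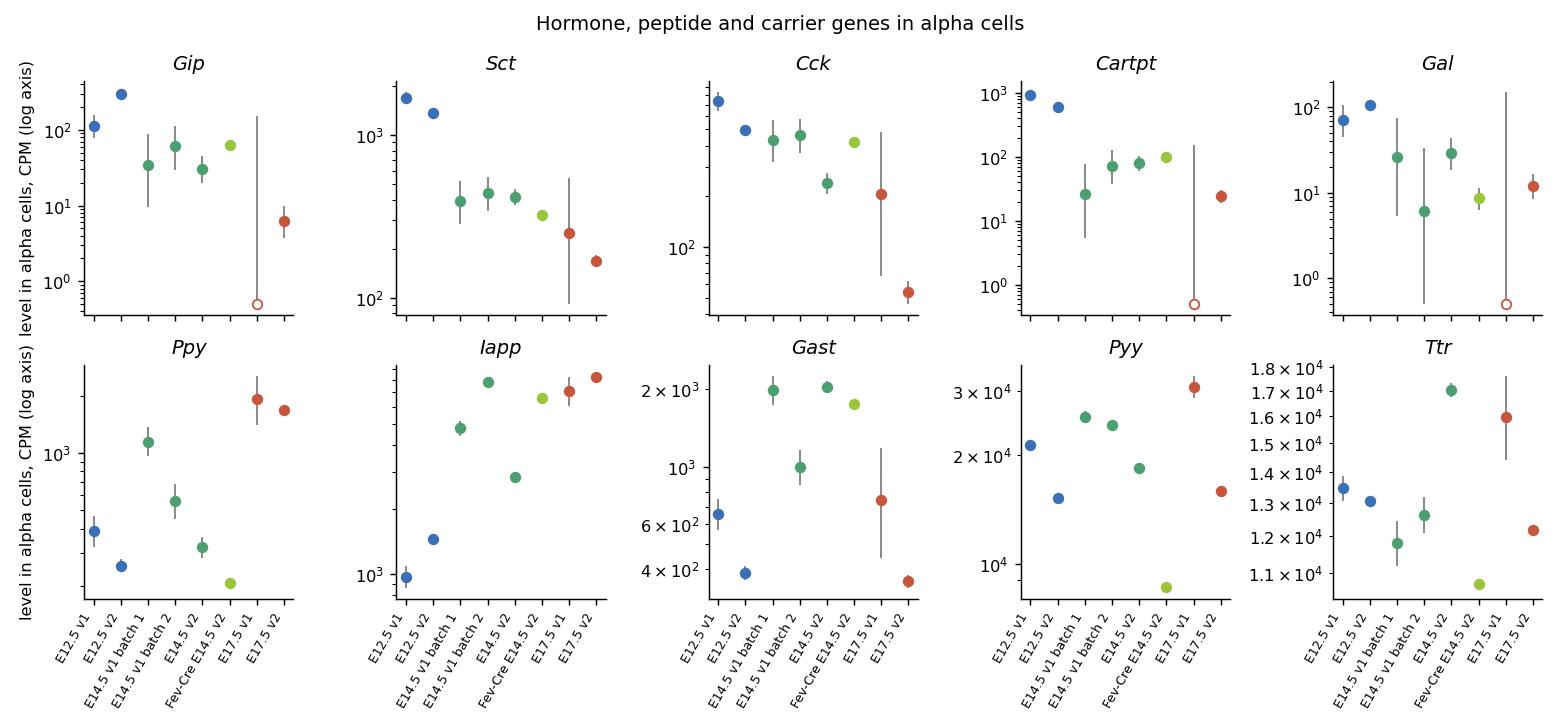
Level of 10 hormone, peptide and carrier genes in alpha cells (vertical log axis, CPM) in each library (horizontal axis); points are UMI sums, lines are exact Poisson intervals that cover counting error only, and open points are sums with no UMI, drawn at 0.5 CPM. *Gip*, *Sct*, *Cck*, *Cartpt* and *Gal* fall from E12.5 to E17.5, *Ppy* and *Iapp* rise, *Gast* is highest at E14.5, and *Pyy* and *Ttr* overlap across stages.

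Promoters of peptide genes often carry a cAMP response element. The palindrome TGACGTCA was searched on either strand in RefSeq windows from 250 bases before to 50 after each gene's start (GRCm38.p6). Among genes with a window it was found in 3 of 70 higher genes (4.29%; *Btg2*, *Scg2* and *Sst*, the last a gate gene), 5 of 72 lower genes (6.94%; *Cartpt*, *Dapk3*, *Fscn1*, *Th* and *Tmem59l*) and 266 of 6282 tested genes (4.23%). The stretches around it, in capitals, are shown for the 3 of these genes that are also among the largest changes, since they went in opposite directions with the same letters in place. The element starts 112 (*Cartpt*), 45 (*Th*) and 68 (*Scg2*) bases before the RefSeq start, all on the minus strand, at chr13:99900777-99900806, chr7:142900022-142900051 and chr1:79440076-79440105. *Cartpt* and *Th* were lower and *Scg2* higher at E17.5. The GENCODE intervals of these genes reach further upstream, so that each stretch lies inside the gene as annotated there. A match describes these letters and does not show that a factor binds.
Cartpt: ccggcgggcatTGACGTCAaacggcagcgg
Th: cagaggggcttTGACGTCAgcctggccttt
Scg2: ggctgagccggTGACGTCAgcgtggaatgc

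*Meis2* had the largest log2 fold change of the alpha and islet transcription factor list. Of 25 tested transcription factor genes of alpha and islet cells, 3 were called higher (*Meis2*, *Smarca1* and *Tshz2*) and none lower, DESeq2 calling 2, with a median of 0.45. *Meis2*, a homeobox gene of the TALE class (ENSMUSG00000027210, GRCm38, chromosome 2, 115863064 to 116065839, minus strand, protein-coding), was measured at 42.2 and 83.9 CPM at E12.5, 634, 722 and 503 CPM at E14.5 and 539 and 695 CPM at E17.5. Every library from E14.5 on lay above both E12.5 libraries and the groups did not overlap. The difference was present by E14.5, with 3.18 on the log2 scale from E12.5 to E14.5 (adjusted p = 5.34e-05), 3.46 to E17.5 (adjusted p = 1.12e-04) and 0.28 from E14.5 to E17.5 (adjusted p = 0.948). Thinned shares of *Meis2*+ alpha cells were 15.6% at E12.5 v2, 56.0% at E14.5 v2 and 64.3% at E17.5 v2. In other epithelial cells they were 22.9, 17.2 and 18.9%. *Smarca1*, an ISWI-type chromatin remodeller, stood at 127 and 126 CPM at E12.5, 365, 237 and 329.6 CPM at E14.5 and 580.4 and 494 CPM at E17.5 (2.04, SE 0.41, adjusted p = 0.00532), and without E12.5 v2 no longer passed (1.88, adjusted p = 0.26). *Tshz2*, a teashirt zinc-finger gene, had a log2 fold change of 1.74 (adjusted p = 0.0129).

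*Irx1*, *Irx2* and *Pou3f4* did not pass the test. *Irx1* had a log2 fold change of -0.20 (SE 0.41, adjusted p = 0.95), *Irx2* of -0.30 (adjusted p = 0.922) and *Pou3f4* of 0.41 (adjusted p = 0.811). *Peg10*, an imprinted gene derived from a retrotransposon, overlapped across stages, at 983 and 324 CPM at E12.5, 2605, 1068 and 350.1 CPM at E14.5 and 746 and 727 CPM at E17.5 (1.47, adjusted p = 0.17).

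Of 18 tested endocrine progenitor genes, 4 were called lower (*Cck*, *Cdkn1a*, *Sox11* and *Sox4*) and none higher, DESeq2 calling 2, with a median of -0.52. *Neurog3*, the factor that starts endocrine differentiation, was low in alpha cells (12.98 and 29.2 CPM at E12.5, 8.68, 18.2 and 35.8 CPM at E14.5 and 0 and 22.4 CPM at E17.5) and did not pass (-0.26, adjusted p = 0.938). At E17.5 v2, 83.8% of its UMIs came from 1 cell. *Fev*, expressed in progenitors after *Neurog3*, stood at 107 and 77.2 CPM at E12.5, 139, 97.0 and 74.1 CPM at E14.5 and 82.9 and 34.6 CPM at E17.5, with E17.5 v2 lowest (-1.003, adjusted p = 0.3). *Cdkn1a*, the cell cycle inhibitor p21, stood at 438 and 371 CPM at E12.5, 52.1, 84.9 and 151 CPM at E14.5 and 166 and 53.02 CPM at E17.5. E12.5 lay above all other libraries (-3.00, SE 0.50, adjusted p = 8.78e-04). *Sox11* and *Sox4*, SoxC factors of differentiating progenitors, were called lower (adjusted p = 0.00646 and 0.0338). *Sox11* stood at 19.5 and 41.7 CPM at E12.5, 34.7, 18.2 and 19.2 CPM at E14.5 and 0 and 3.95 CPM at E17.5. *Sox4* stood at 81.1 and 134 CPM at E12.5, 78.1, 18.2 and 89.4 CPM at E14.5 and 82.9 and 36.6 CPM at E17.5, so it was not lower at E17.5 within v1. Without E12.5 v2 neither passed (log2 fold changes -1.77 and -2.09, adjusted p = 0.927 and 0.262), and *Sox11* also did not pass without E14.5 v2 (-3.21, adjusted p = 0.0821).

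Among genes with at least 50 CPM at the higher stage and levels that differed in the same direction in both kits, the 10 largest rises outside the lists of other cell types were *Tmsb15b1*, *Tmsb15b2*, *Pla2g2f*, *Slc30a8*, *Meis2*, *Rasd1*, *Spink4*, *Lpl*, *Pla2g1b* and *Scg2*. Within v1 the exact Poisson intervals of E12.5 and E17.5 lay apart for *Pla2g2f*, *Slc30a8* and *Meis2* and overlapped for the other 7. *Tmsb15b1* and *Tmsb15b2* encode near-identical thymosin beta proteins and overlap on the X chromosome (136974022 to 136976874 and 136955265 to 136975497), so the split of reads between them is uncertain. At E14.5 *Tmsb15b1* stood at 95.5, 6.07 and 12.8 CPM, and its E12.5 v1 and E17.5 v1 values are 3 UMIs each. *Tmsb15b1* rose from 9.74 and 1.67 CPM at E12.5 to 124 and 149 at E17.5 (6.30, SE 0.69, adjusted p = 1.81e-05). *Lpl*, the gene of lipoprotein lipase, which frees fatty acids from circulating triglycerides, stood at 12.98 and 16.7 CPM at E12.5, 26.0, 36.4 and 40.9 CPM at E14.5 and 124 and 115 CPM at E17.5 (2.91, SE 0.44, adjusted p = 5.09e-04). *Spink4*, a trypsin inhibitor family gene, stood at 26.0 and 26.3 CPM at E12.5, 86.8, 60.7 and 74.1 CPM at E14.5 and 41.5 and 204 CPM at E17.5 (3.07, SE 0.40, adjusted p = 8.21e-05). *Pla2g2f* and *Pla2g1b*, secreted phospholipases A2, went from 6.68 and 15.4 CPM in E12.5 v2 to 67.2 and 95.2 in E17.5 v2. *Rasd1*, a Ras-like gene induced by dexamethasone, went from 10.0 to 72.1 CPM in the same libraries and stood at 91.0 CPM in E14.5 v1 batch 2. The calls of *Pla2g2f* and *Rasd1* were lost in DESeq2 and in thinned cells, and that of *Tmsb15b1* with the Fev-Cre library added. Without E12.5 v2, *Pla2g2f* and *Lpl* did not pass (4.56 and 2.86, adjusted p = 0.0662 and 0.229).

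By the same limits the 10 largest falls were *Mfap4*, *Gip*, *Cartpt*, *Ly6h*, *Apom*, *Nkx6-2*, *Cited1*, *Mdk*, *Th* and *Afp*. Of these 10, 9 had no UMI in E17.5 v1. The exact Poisson intervals of E12.5 v1 and E17.5 v1 lay apart for *Cartpt*, *Cited1* and *Mdk* and overlapped for the other 7. *Mfap4*, a gene of microfibril-associated matrix protein that other cells of the libraries also expressed, differed late. It was measured at 48.7 and 51.7 CPM at E12.5, 43.4, 66.7 and 58.8 CPM at E14.5 and 0 and 0.659 CPM at E17.5, with 0.18 on the log2 scale from E12.5 to E14.5 (adjusted p = 0.95) and -6.14 from E14.5 to E17.5 (adjusted p = 5.51e-05). The other cells held 96.3 CPM in E12.5 v2 and 16.2 CPM in E17.5 v2. *Mdk*, the gene of the growth factor midkine (chromosome 2, 91929805 to 91932297), fell as well, with 1636 and 1258 CPM at E12.5, 764, 588 and 745 CPM at E14.5 and 497 and 91.2 CPM at E17.5 (-3.84, SE 0.55, adjusted p = 2.37e-04). Thinned shares of *Mdk*+ alpha cells were 88.4% at E12.5 v2, 65.0% at E14.5 v2 and 12.3% at E17.5 v2. Of other epithelial cells 37.4% had a UMI at E17.5 v2.

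*Cited1*, a transcriptional co-activator gene of early epithelia, fell before E14.5. It was measured at 571 and 398 CPM at E12.5, 69.5, 78.9 and 67.7 CPM at E14.5 and 0 and 24.0 CPM at E17.5, with both E12.5 libraries above every later one, and with a log2 fold change of -2.77 to E14.5 (adjusted p = 1.10e-05) and -4.00 to E17.5 (adjusted p = 2.31e-05). *Nkx6-2*, a homeobox gene, and *Th*, which encodes tyrosine hydroxylase of catecholamine synthesis, were near the detection limit from E14.5 on. *Nkx6-2* stood at 74.6 and 69.7 CPM at E12.5, 0, 0 and 1.28 CPM at E14.5 and 0 and 3.62 CPM at E17.5 and *Th* at 58.4 and 48.4 CPM at E12.5, 0, 6.07 and 2.56 CPM at E14.5 and 0 and 2.96 CPM at E17.5. A count of 0 allowed 26.1 CPM in E14.5 v1 batch 1 and 18.2 CPM in batch 2. *Ly6h*, a gene of a membrane-anchored Ly6 protein, stood at 159 and 182 CPM at E12.5, 34.7, 36.4 and 19.2 CPM at E14.5 and 0 and 6.26 CPM at E17.5 (-4.57, adjusted p = 1.81e-05). *Apom*, an apolipoprotein of high-density lipoprotein, stood at 195 and 85.1 CPM at E12.5, 34.7, 18.2 and 29.4 CPM at E14.5 and 0 and 4.61 CPM at E17.5 (-4.27, adjusted p = 1.16e-04). *Afp*, the alpha-fetoprotein gene, fell by 3.58 on the log2 scale (adjusted p = 8.93e-04). Without E12.5 v2, *Nkx6-2*, *Th* and *Afp* did not pass (-7.22, -3.70 and -5.24, adjusted p = 0.868, 0.895 and 0.592).

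**Figure D4:**
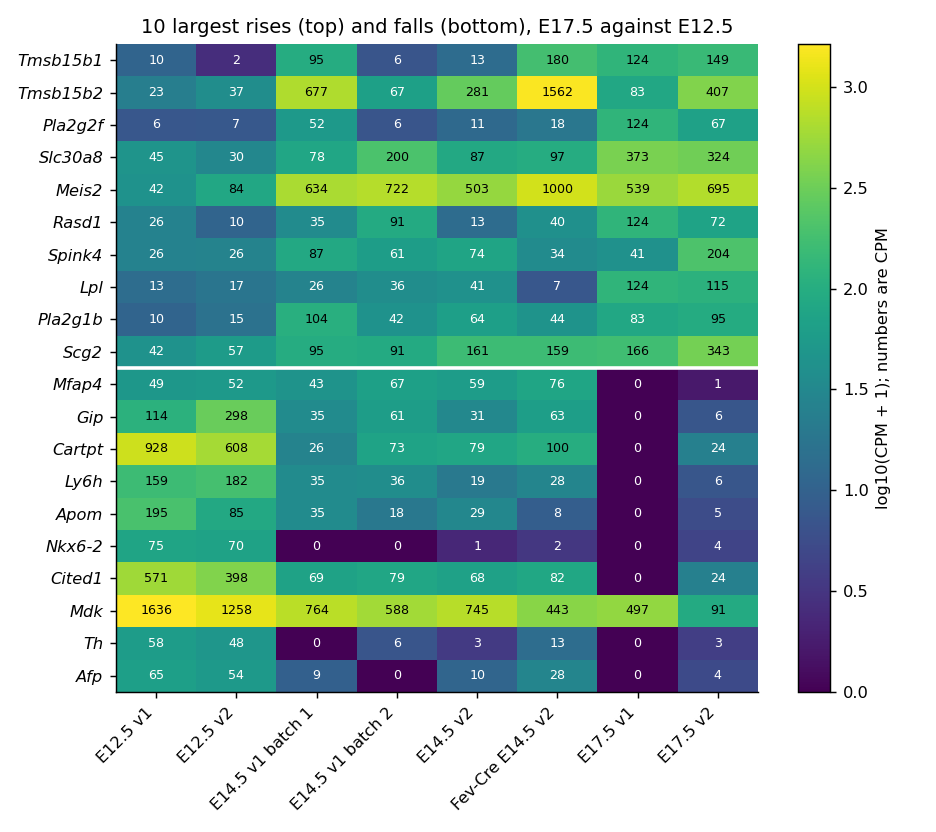
Levels in alpha cells of the 10 genes with the largest rise (top) and the 10 with the largest fall (bottom) from E12.5 to E17.5, by library; the colour is log10(CPM + 1) and the printed numbers are CPM. The E14.5 libraries lie nearer to E17.5 v2 than to E12.5 for *Meis2*, *Cited1*, *Nkx6-2* and *Th*, and nearer to E12.5 for *Mfap4*.

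Genes of nutrient handling were mixed. Of 14 tested transport and nutrient-sensing genes 2 were called higher and 1 lower, DESeq2 calling 1, with a median of 0.52. *Slc38a5*, a glutamine transporter through which amino acids drive alpha cell growth, was the 1 called lower (chromosome X, 8271133 to 8280179). It was measured at 16101 and 8808 CPM at E12.5, 6685, 9517 and 5935 CPM at E14.5 and 4850.3 and 2052 CPM at E17.5. E17.5 v2 lay below all others and E12.5 v1 highest, at a log2 fold change of -2.12 (SE 0.53, adjusted p = 0.0334). The call was lost without E12.5 v2 (-2.43, adjusted p = 0.0626) and without E14.5 v1 batch 1 (-2.03, adjusted p = 0.0607). Still, 85.7% of thinned E17.5 v2 alpha cells had a UMI, against 99.6% at E12.5 v2 and 1.68% of other epithelial cells. The amino acid transporters *Slc7a8* and *Slc7a2* were called higher (2.61 and 1.48, adjusted p = 0.0173 and 0.0332). *Slc7a2*, the arginine transporter, stood at 84.4 and 94.7 CPM at E12.5, 95.5, 139.5 and 80.5 CPM at E14.5 and 166 and 220.0 CPM at E17.5. Neither passed without E12.5 v2 (log2 fold changes 4.26 and 2.04, adjusted p = 0.207 and 0.146), *Slc7a8* did not pass without E14.5 v2 (2.34, adjusted p = 0.328), and *Slc7a2* did not without E14.5 v1 batch 2 or E12.5 v1 (1.39 and 1.34, adjusted p = 0.069 and 0.0753).

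Of 9 tested receptor genes 1 was called, *Ffar1*, a receptor for long-chain fatty acids. It stood at 35.7 and 18.8 CPM at E12.5, 34.7, 30.3 and 24.3 CPM at E14.5 and 0 and 65.5 CPM at E17.5 (1.84, SE 0.45, adjusted p = 0.029) and did not pass without E12.5 v2 (1.36, adjusted p = 0.799). The receptor list had a median of 0.75, and DESeq2 called none of it. Of 13 tested genes of mature alpha cells, 3 were called higher (*Gria3*, *Tm4sf4* and *Rgs4*) and 1 lower (*Slc38a5*), DESeq2 calling 1, with a median of 0.07. *Gria3*, an AMPA-type glutamate receptor subunit, stood at 9.74 and 2.92 CPM at E12.5, 0, 18.2 and 6.39 CPM at E14.5 and 0 and 44.8 CPM at E17.5. Outside E17.5 v2 it reached 18.2 CPM at most (3.85, SE 0.74, adjusted p = 0.00398). *Tm4sf4*, a tetraspanin-like membrane protein, and *Rgs4*, a regulator of G protein signalling, had log2 fold changes of 2.21 and 2.04 (adjusted p = 0.00735 and 0.00429). None of these 3 passed without E12.5 v2 (2.98, 1.16 and 1.51, adjusted p = 0.755, 0.623 and 0.452), and *Rgs4* had 41.5 CPM in E17.5 v1 against 51.9 in E12.5 v1.

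Few alpha cells were rich in G2/M genes at any stage. After thinning to 2000 UMIs a cell was counted when 52 such genes together gave at least 0.5% of its UMIs. By this count 2 of 41 and 14 of 225 cells at E12.5 (4.88 and 6.22%), 1 of 29, 0 of 29 and 2 of 100 at E14.5 (3.45, 0 and 2.00%) and 12 of 252 at E17.5 v2 (4.76%) were G2/M-rich. Between 0.4 and 0.6% lay 11 of the 225 and 2 of the 252 v2 cells. The 0 of 29 allows a share of up to 11.9% (exact binomial 95% interval). In the other epithelial cells of these libraries the share was 18.5 to 51.3%. In E17.5 v1 it was 6.59% (12 of 182), with 0 of 4 alpha cells. No gene of 28 tested S phase and 32 tested G2/M genes was called by edgeR or DESeq2 (3 and 1 at an unadjusted p below 0.05, medians -0.53 and -0.30). *Mki67*, a marker of dividing cells, stood at 28.4 CPM in E12.5 v2 and 32.9 in E17.5 v2 (0.48, adjusted p = 0.904).

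Of the 14 tested cyclin and inhibitor genes, 2 were lower (*Cdkn1a* and *Cdkn1c*) and 2 higher (*Gadd45g* and *Btg2*), and DESeq2 called 1. *Cdkn1c*, the imprinted inhibitor p57, stood at 273 and 316 CPM at E12.5, 260.5, 303 and 137 CPM at E14.5 and 249 and 60.3 CPM at E17.5 (-1.997, SE 0.44, adjusted p = 0.0129). Genes of the fetal Lin28 and let-7 axis included 2 that were lower of 6 tested, with a median of -0.73 and none called by DESeq2. *Igf2bp1*, an RNA-binding protein of fetal tissue, stood at 58.4 and 56.3 CPM at E12.5, 17.4, 30.3 and 15.3 CPM at E14.5 and 0 and 6.59 CPM at E17.5 (-2.87, adjusted p = 0.00196). *Hmga2*, an architectural chromatin protein repressed by let-7, stood at 32.5 and 110.2 CPM at E12.5, 34.7, 12.1 and 62.6 CPM at E14.5 and 0 and 18.4 CPM at E17.5 (-2.41, adjusted p = 0.00369). Other epithelial cells of E17.5 v2 held 14.4 and 81.4 CPM of both. *Lin28b* was too low to test, at no more than 0.835 CPM in any Swiss Webster alpha sum. Of 26 imprinted genes 2 were called lower, *H19* (-2.94, adjusted p = 0.0148) and *Cdkn1c*, at a median of 0.31 for the list, and DESeq2 called none. Without E12.5 v2 none of *Cdkn1c*, *Gadd45g*, *Btg2*, *Igf2bp1*, *Hmga2* and *H19* passed (log2 fold changes -1.04, 1.75, 0.96, -2.36, -2.25 and -1.61, adjusted p = 0.672, 0.273, 0.82, 0.806, 0.489 and 0.366).

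None of 27 tested genes of protein folding and stress in the endoplasmic reticulum was called by either tool (6 at an unadjusted p below 0.05, median 0.01). Of 7 antigen presentation genes 2 were higher in edgeR and none in DESeq2. *H2-D1* and *H2-K1*, classical class I genes, had log2 fold changes of 1.88 and 1.81 (adjusted p = 0.00629 and 0.0233), with a list median of 1.88. *H2-D1* stood at 90.9 and 38.8 CPM at E12.5, 148, 200.2 and 61.3 CPM at E14.5 and 82.9 and 126 CPM at E17.5, not higher at E17.5 in v1, and its log2 fold change was -0.48 with E17.5 v1 in place of E17.5 v2. *H2-K1* stood at 107 and 60.5 CPM at E12.5, 52.1, 176 and 67.7 CPM at E14.5 and 497 and 195 CPM at E17.5. The other cells of E17.5 v2 held 127 and 127 CPM, against 126 and 195 CPM in alpha cells, and those of E12.5 v2 held 21.7 and 19.3 CPM, against 38.8 and 60.5 CPM. *Krt18*, an epithelial keratin, was the 1 gene called of 14 junction and keratin genes by edgeR (1.73, adjusted p = 0.0291) and was not called by DESeq2. It stood at 127 and 118 CPM at E12.5, 659.8, 309 and 305 CPM at E14.5 and 580.4 and 332 CPM at E17.5. Of 7 tested genes that respond to the hormones of late gestation none was called by either tool (4 at an unadjusted p below 0.05), with a median of 1.20. Without E12.5 v2, *H2-D1*, *H2-K1* and *Krt18* did not pass (log2 fold changes 2.07, 1.78 and 2.096, adjusted p = 0.13, 0.259 and 0.171), and *Krt18* did not without E12.5 v1 (adjusted p = 0.0593).

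Some immediate-early genes, which cell dissociation also induces, were higher at the later stages. Of 21 tested genes 6 were called higher at E14.5 than at E12.5, and 6 at E17.5 (*Junb*, *Hspa1a*, *Fos*, *Egr1*, *Btg2* and *Zfp36*) and none lower, DESeq2 calling 2, at a median of 1.23. Their summed share of alpha UMIs was 0.258 and 0.291% at E12.5, then 0.686, 0.463 and 0.476% at E14.5, then 0.800 and 0.425% at E17.5. The remaining cells of the same libraries held 0.284 and 0.405%, then 0.899, 0.894 and 0.583%, then 1.33 and 0.521%, so alpha cells were below the others in every library. *Junb*, an AP-1 subunit, stood at 68.2 and 45.1 CPM at E12.5, 329.9, 437 and 229 CPM at E14.5 and 953 and 220.0 CPM at E17.5 (2.44, adjusted p = 7.75e-04), and *Fos* at 42.2 and 91.0 CPM at E12.5, 434, 461 and 360.3 CPM at E14.5 and 1285 and 293 CPM at E17.5 (2.08, adjusted p = 0.00579). *Hspa1a*, a heat shock protein gene, was 10.8 CPM in E12.5 v2 and 91.2 in E17.5 v2. The part of the longer digestion in these values cannot be told apart from stage.

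Several calls were of genes that other cells of the libraries express far more. Of 6 tested haemoglobin genes 3 adult ones were called higher and 2 embryonic ones lower (*Hbb-y* and *Hba-x*). *Hbb-bs* stood at 18574 CPM in alpha cells of E17.5 v2 and 84700.5 CPM in the other cells. Of 16 tested acinar genes 6 were called higher, DESeq2 calling 2. *Rnase1*, a digestive ribonuclease of acinar cells, stood at 65.2 CPM in alpha cells and 950.0 CPM in the others. Without E12.5 v2 the acinar genes *Cela3b*, *Cela2a* and *Cpb1* did not pass (log2 fold changes 2.84, 8.19 and 12.48, adjusted p = 0.634, 0.387 and 0.551). Of 8 tested beta cell genes outside the gate 1 was called higher (*Iapp*) and 3 lower (*Npy*, *Ppp1r1a* and *Nkx6-1*). *Iapp* itself was higher in alpha cells than in the remaining non-alpha cells of E17.5 v2 together. *Nkx6-1* stood at 103.9 and 101 CPM at E12.5 and 124.4 and 26.0 CPM at E17.5. It was thus not lower at E17.5 within v1, where the E17.5 value is 3 UMIs. *Ins1*, *Ins2* and *Sst* are gate genes and are described only; they are counted among the 100 higher genes, which are 97 without them. *Ins2* stood at 1004 CPM in alpha cells of E17.5 v2, against 27064 CPM in the other cells. When cells with 0.5% or more of haemoglobin or acinar UMIs were left out, all 65 named calls outside the gate that could be tested still passed, with 126 genes higher and 104 lower in all. Calls of the haemoglobin genes *Hbb-y*, *Hbb-bt* and *Hbb-bs* were among them, so RNA of these genes remained under this limit. The part of RNA from other cells in these and the remaining calls was not tested. In all, 14 of the 100 higher and 8 of the 87 lower genes belong to lists of other cell types.

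E14.5 was the middle stage in time, though *Gast* and *Chgb* were highest there. It shares the E12.5 libraries with one comparison and E17.5 with the other. Between E12.5 and E14.5, 63 genes (0.78%) were higher and 40 (0.495%) lower, and without gate genes 63 and 39. Between E14.5 and E17.5, 17 (0.21%) were higher and 25 (0.309%) lower, and without gate genes 15 and 25. Granule genes were split over the steps: *Slc30a8* had 1.57 on the log2 scale to E14.5 (adjusted p = 0.038) and 2.01 after it (0.0303), *Scgn* 1.71 and 0.35 (adjusted p = 0.00503 and 0.896), and *Pcsk2* 0.53 and 1.51 (adjusted p = 0.69 and 0.237). *Gip* had -2.45 and -2.70 (adjusted p = 0.00242 and 0.0468), *Cartpt* -3.53 and -1.26 (adjusted p = 4.76e-06 and 0.551) and *Mdk* -1.10 and -2.74 (adjusted p = 0.134 and 0.00978). *Ppy* rose after E14.5 (0.70 and 2.31, adjusted p = 0.57 and 0.0293). Without E14.5 v1 batch 1 the later step held 82 higher and 98 lower genes, and without E14.5 v2 it held 3 and 13.

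Changes of alpha cells were set against those of other epithelial cells in the same libraries, which had at least 1 UMI of *Epcam*, no *Chga* and less than 0.2% *Gcg* (17249 cells). Their mix of cell types was not measured and may differ by stage, which cannot be told apart from a change of a gene within cells. *Ins1* and *Ins2* together and *Col3a1* were limited in them as in alpha cells. The stage by class interaction asks whether a gene changed more from E12.5 to E17.5 in alpha cells than in these. This fit left 2 residual degrees of freedom and used a spread estimated over all genes together. Very small p-values here therefore do not stand for replicate pools of E17.5. Of 13165 genes, 239 (1.82%) had a larger log2 fold change in alpha cells and 389 (2.95%) a smaller one. The 5 with the smallest p in each direction were *Meis2*, *Lpl*, *Zdbf2*, *Tuba1a* and *Cdh2*, and *Ass1*, *Me1*, *Apoe*, *Sec11c* and *Ckb*. *Meis2* went from 83.9 to 695 CPM in alpha cells of the v2 libraries and from 126 to 116 CPM in other epithelium, a difference of log2 fold changes of 3.28 (SE 0.31, adjusted p = 4.87e-23). *Zdbf2*, an imprinted gene, and *Tuba1a*, an alpha-tubulin, differed through lower levels in the other epithelium of E17.5. *Zdbf2* was 278 and 217 CPM in alpha cells of E12.5 v2 and E17.5 v2, and 26.4 and 1.94 CPM in other epithelium (difference 3.26, SE 0.34, adjusted p = 3.69e-19). The adhesion gene *Cdh2* had 36.7 and 63.9 CPM in alpha cells and 17.3 and 1.3 CPM in the others.

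In the other direction, *Ass1*, an enzyme of arginine synthesis, stood in other epithelium at 6.36 and 132 CPM, while alpha cells had 42.6 and 14.2 CPM (difference -6.19, SE 0.41, adjusted p = 3.86e-47). *Me1*, malic enzyme, showed the same with 4.33 and 42.4 CPM outside and 50.5 and 15.8 CPM in alpha cells. *Apoe*, a lipid carrier, was 529 and 65.5 CPM in alpha cells and 522 and 577 CPM in the others, and its own fall in alpha cells passed (-2.83, adjusted p = 7.05e-04). All 10 kept their call in each of 11 alternatives except *Lpl* and *Cdh2*, which lost it without E12.5 v2. Without E12.5 v2 the interaction called 21 genes higher and 35 lower.

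Beta cells, gated in the same way on insulin genes, were the nearest hormone cells for comparison (1107 cells). Between E14.5 and E17.5, 23 of 8231 genes (0.279%) had a larger log2 fold change in alpha than in beta cells and 51 (0.62%) a smaller one. This fit rests on 4 libraries and 1 residual degree of freedom. Its spread was also estimated over all genes together, so its p-values do not stand for replicate pools of E17.5. Several genes of alpha cells were lower in beta cells of E17.5 than in those of E14.5. *Peg10* was 350.1 and 727 CPM in alpha cells of E14.5 v2 and E17.5 v2 and 68.8 and 4.76 CPM in beta cells (difference of log2 fold changes 4.29, SE 0.35, adjusted p = 2.77e-30). *Pyy* was 18390.0 and 15839.7 CPM against 8640.4 and 1189.7 CPM, and *Sct* 417 and 168 CPM against 113 and 7.91 CPM. *Mest*, an imprinted gene, also had a larger log2 fold change in alpha cells, but 80% of its E17.5 v2 alpha UMIs came from 1 cell. *Pyy*, *Sct* and *Mest* lost the call with no filter on low counts and in DESeq2, while *Peg10* kept it in 6 of 6 alternatives.

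Granule genes were also found in beta cells. *Slc30a8* stood at 119 and 442 CPM in beta cells of E14.5 v2 and E17.5 v2, against 86.9 and 324 CPM in alpha cells. *Scg2* stood at 327 and 893 CPM in beta cells and 161 and 343 CPM in alpha cells. In E17.5 v2, *Pcsk2* stood at 2419 CPM in alpha and 1413 CPM in beta cells, and *Pcsk1* at 22.1 and 311 CPM. These differences in level between the classes were not tested. The 5 genes furthest in the other direction, *S100a8*, *BC100530*, *Cpa3*, *Ngp* and *S100a9*, are expressed by granulocytes and mast cells. In E14.5 v2, 2 of the 100 alpha cells held 419 and 804 UMIs of 7 such genes, and *S100a8* stood at 539 CPM there and at no more than 7.57 CPM in the other Swiss Webster alpha sums. Leaving out all 5 alpha cells with 10 or more such UMIs gave 102 genes higher and 95 lower from E12.5 to E17.5.

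**Figure D5:**
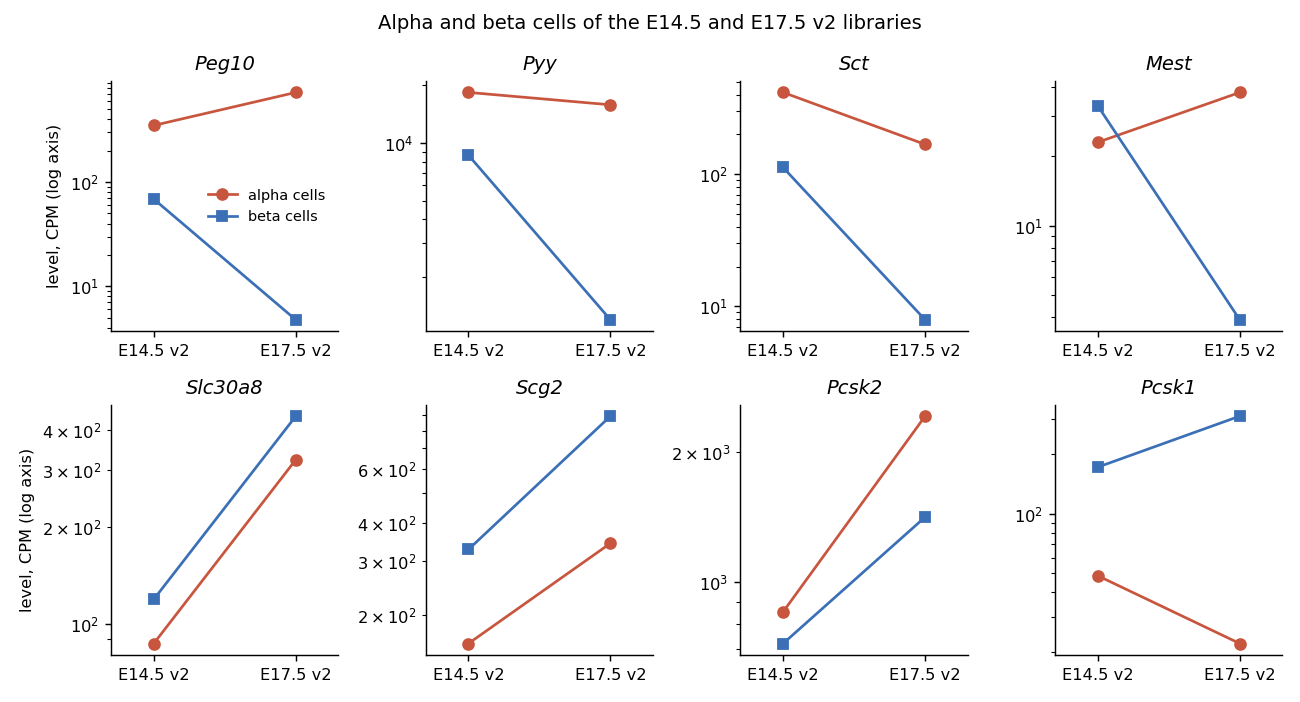
Levels of 8 genes (vertical log axis, CPM) in alpha cells (red circles) and beta cells (blue squares) of the E14.5 and E17.5 v2 libraries, 1 sum per point with no replicate. *Peg10*, *Pyy* and *Sct* are lower at E17.5 than at E14.5 in beta cells, with *Peg10* at 4.76 CPM at E17.5.

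The 547 alpha cells of the *Fev-Cre; ROSA26mTmG* library, of another strain and sorted by reporter, were set beside the E14.5 libraries without a test. They held 1000.2 CPM of *Meis2*, 293 of *Scgn*, 99.8 of *Cartpt* and 81.8 of *Cited1*, against 503, 249, 79.2 and 67.7 CPM in E14.5 v2. *Slc30a8* stood at 97.3 CPM and *Gast* at 1759.8 CPM, next to 86.9 and 2053 CPM in E14.5 v2. *Pyy* was lower than in any Swiss Webster library, at 8653 CPM, and *Apom* stood at 8.03 CPM. Haemoglobin genes made up 0.0003% of their UMIs. GFP mRNA was found in 546 of the 547 alpha cells (99.8%, exact binomial 95% interval 99.0 to 100%). It was also found in 26.3% of other epithelial cells and in 20.1% of cells with 5 or more *Col3a1* UMIs. Median depths were 8903, 12720 and 7188 UMIs. Cells were sorted on this reporter and the sorted fractions were mixed, so these shares cannot be read as labelling rates. The interval covers only the count of cells in this pool. When this library was added to the stage test, 35 genes were higher and 31 lower from E12.5 to E17.5.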

How the data were processed

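The authors aligned reads to mm10 with STAR in Cell Ranger 1.1 (v1) or 2.1 (v2), per the submitters' notes, and deposited matrices of raw UMI counts per gene and cell. Members and gene lists were chosen with earlier results of these data known. UMIs of gated cells were summed per library, the 2 E17.5 v2 wells together, over the 27716 genes common to all matrices. Sums from at least 10 cells were tested with edgeR 4.0.16 in R 4.3.3 (TMM, filterByExpr, glmQLFTest on kit plus stage, Benjamini-Hochberg adjustment); 6 libraries left 2 residual degrees of freedom. The fit was first tested on simulated counts. Differences between classes were tested as stage by class interactions with the library as block. The kit was set as the block in the plan of the test. Differences of v2 minus v1 at E12.5 and at E14.5 correlated across the 8082 tested genes (Pearson's r = 0.51, a description). Those at E12.5 correlated less with batch 1 minus batch 2 at E14.5 (r = 0.112). The text names the 10 largest called changes each way with at least 50 CPM and one sign in both kits, outside gate genes, other cell types' lists, sex-linked, ribosomal, mitochondrial and unnamed genes, up to 4 called members per list, a set of alpha cell genes whatever they did, and the 5 smallest p each way per interaction; some genes that this rule names are not reported here. *Dapk3*, *Fscn1*, *Tmem59l*, *Zfp36*, *Snap25*, *Syt13* and *Abcc8* were named after their values were seen. Gene positions are from GENCODE M21. DESeq2 1.42.0 and the alternatives below were also run; alignment was not repeated and no doublet caller was run.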

Additional observations from a re-analysis of the deposited data

Results flagged for a closer look

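These genes differed in their stage effect between alpha cells and another class of cells, by edgeR's test of the interaction. Against other epithelium (E17.5 minus E12.5), the log2 fold change was larger in alpha cells by 3.28 for *Meis2*, 4.41 for *Lpl*, 3.26 for *Zdbf2*, 2.69 for *Tuba1a* and 4.36 for *Cdh2*, and the difference was -6.19 for *Ass1*, -5.12 for *Me1*, -3.37 for *Apoe*, -3.37 for *Sec11c* and -3.28 for *Ckb*. *Lpl* and *Cdh2* lost the call without E12.5 v2. Against beta cells (E17.5 minus E14.5), it was larger in alpha cells by 4.29 for *Peg10*, 2.04 for *Pyy*, 1.92 for *Sct* and 3.19 for *Mest*.

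The difference from beta cells was -8.56 for *S100a8*, -9.94 for *BC100530*, -7.06 for *Cpa3*, -6.94 for *Ngp* and -6.02 for *S100a9*, genes of granulocytes and mast cells. In E14.5 v2 alpha cells *S100a8* had 539 CPM and *Cpa3* 309 CPM, and 2 of the 100 cells there held 419 and 804 UMIs of 7 such genes. They also passed the *Gcg* limit, with 1.25 and 12.3% of UMIs from *Gcg*.

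Signal also appeared in reporter columns that the comparisons did not use. In the *Fev-Cre; ROSA26mTmG* library GFP mRNA was found in 99.8% of alpha cells and tdTomato mRNA in 2.38% (13 of 547), against 14.3% of other epithelial cells for tdTomato. The Swiss Webster libraries carry no reporter gene.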

How the results depend on the processing

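E17.5 stands on 1 library with 6 libraries in the fit, so calls depend on few pools. Of 67 named genes outside the gate called between E12.5 and E17.5, the call was kept by 67 with size factors by median of ratios, by 66 of 66 without leukocyte-gene cells, by 63 and 64 with E17.5 v2 well 1 or 2 alone and by 46 of 55 in cells thinned to 2000 UMIs. It was kept by 34 of 65 in DESeq2, 35 with the Fev-Cre library added, 30 of 64 without E12.5 v2 and 6 of 58 with E17.5 v1 in place of E17.5 v2. Without the kit as block (no replicate block) 13 of 67 were kept, and the counts, higher and lower, were 8 and 8 (E17.5 against E12.5), 2 and 5 (E14.5 against E12.5) and 0 and 1 (E17.5 against E14.5; 467 genes at an unadjusted p below 0.05 in edgeR). The kit block joins both v1 batches; without E14.5 v1 batch 1, which leaves 1 v1 batch, the counts were 217 and 204 (E17.5 against E12.5). The causes were not tested.

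DESeq2 gave 28 and 28, 20 and 12, and 3 and 9 for these comparisons, 41 and 35 for the interaction with other epithelium and 1 and 4 for that with beta cells. With no filter on low counts there were 162 higher genes from E12.5 to E17.5, 108 and 63 from E12.5 to E14.5, 43 and 57 from E14.5 to E17.5, and 1 and 3 against beta cells. With the Fev-Cre library the counts were 35 and 31, 6 higher at E14.5, 6 and 1, and 105 and 144 against beta cells. Leaving out 1 library gave 33 to 217 higher and 30 to 204 lower (E17.5 against E12.5), 30 to 127 and 16 to 78 (E14.5 against E12.5), 3 to 82 and 13 to 98 (E17.5 against E14.5) and 21 to 308 and 35 to 494 (other epithelium).

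A *Gcg* limit of 2% gave 35 and 43 from E14.5 to E17.5. Thinned cells gave 40 lower at E17.5 and 20 lower at E14.5 than at E12.5. With size factors by median of ratios 1 endocrine progenitor gene, *Selm*, was higher in place of 0. Alternatives chosen after seeing the data were the Fev-Cre library in both class tests, no class by kit term (29 and 44 against beta cells), a fit on 7 libraries with E17.5 v1 (9 and 13 from E14.5 to E17.5), E17.5 v1 in place of E17.5 v2 (8 and 3 against E12.5, 0 and 0 against E14.5, 308 at an unadjusted p below 0.05 in edgeR), the E12.5 and E17.5 libraries alone with E17.5 v1 (185 and 222), no *Ghrl* limit (9 and 13 from E14.5 to E17.5) and no leukocyte-gene cells (16 lower from E14.5 to E17.5). With E17.5 v1 in place, *Rgs4* (-0.31) and *H2-D1* (-0.48) changed sign, as did *Cpa3* with E17.5 v2 well 1 alone (-1.08).

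The planned fit on the outer libraries that hold 10 cells left no residual degree of freedom, the beta cell fit could not be fitted with a library left out, and without E17.5 v2 no E17.5 contrast exists.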

Other observations

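Between E12.5 and E17.5, when 1.24% of all genes were called higher and 1.08% lower, lists of other cell types not described above held these calls. Of 5 tested delta, epsilon and PP cell genes 2 were called higher, *Ppy* and the gate gene *Sst*, DESeq2 calling 1. None of 8 tested duct genes and 8 tested immune genes was called in edgeR or DESeq2 (4 and 4 at an unadjusted p below 0.05), and *Spp1* and *Sox9* did not pass. *Cpa3*, a mast cell gene outside these lists, was called higher (3.28, adjusted p = 0.0322), at 0 and 1.67 CPM at E12.5, 0, 60.7 and 309 CPM at E14.5 and 0 and 15.5 CPM at E17.5. It did not pass without E12.5 v2 or E14.5 v2 (adjusted p = 0.876 and 0.897), its sign turned with E17.5 v2 well 1 alone, and it was too low to test once the 5 leukocyte-gene cells, 2 of them in E17.5 v2, were left out. *Sox9*, a factor of duct and progenitor cells, stood at 35.7 and 48.8 CPM at E12.5, 52.1, 0 and 69.0 CPM at E14.5 and 0 and 21.4 CPM at E17.5. Of 9 mesenchymal genes 1 was called lower, *Ptn*, the gene of the growth factor pleiotrophin, at 64.9 and 108 CPM at E12.5, 165, 78.9 and 109.9 CPM at E14.5 and 0 and 14.2 CPM at E17.5 (-2.65, adjusted p = 0.00157; without E12.5 v2 -2.02, adjusted p = 0.249). The other cells held 694 CPM of *Ptn* in E12.5 v2 and 178 CPM in E17.5 v2. Of 3 tested neural crest and neuronal genes, *Stmn2* and *Tubb3* were called lower (-6.28 and -1.81, adjusted p = 0.00834 and 0.0276). Neither was called by DESeq2. *Stmn2* stood at 3.25 and 37.1 CPM at E12.5, 0, 0 and 1.28 CPM at E14.5 and 0 and 0.329 CPM at E17.5, so that E12.5 v2 alone of the Swiss Webster libraries held more than 1 UMI. *Tubb3* did not pass without E12.5 v2 (-1.998, adjusted p = 0.249), and *Stmn2* did not without E14.5 v2 (-6.29, adjusted p = 0.146).

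Genes of ghrelin cells were present below the gate's limit. *Mboat4*, which encodes the enzyme that acylates ghrelin, stood at 97.4 and 38.0 CPM at E12.5, 17.4, 36.4 and 15.3 CPM at E14.5 and 0 and 12.2 CPM at E17.5 (-1.57, adjusted p = 0.125), and *Ghrl*, a gate gene, at 432 and 377 CPM at E12.5, 8.68, 6.07 and 69.0 CPM at E14.5 and 0 and 132 CPM at E17.5.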
